A study of Drosophila melanogaster with 9 samples.

Results

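The response of serum-starved Drosophila S2 cells to DILP5 was described across all expressed genes. The comparison sets 3 RNA-Seq libraries of cells given 100 nM DILP5 for 1 h against 3 libraries of cells given vehicle, 6 of the 9 libraries of the series, and the other 3 are cells given 100 nM DILP2. The members are the 6 libraries that the labels put in these groups, called here DILP5 and vehicle replicates A, B and C. S2 is an established Drosophila line with features of hemocytes, the blood cells of the fly. All cells, vehicle cells included, had been held for 16 h in Schneider's medium without serum. Starved thus means depleted of serum here, and the vehicle group is a serum-depleted state and not a serum-fed one. The DILP5 was a recombinant peptide, and the vehicle was the dilute acid in which the peptide was dissolved. The table held counts for 13937 genes, and the 8981 genes with enough counts were tested. The labels do not say that the 3 libraries of a group came from separate cultures, so p-values measure the spread between these libraries, which may be technical.

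Drosophila insulin-like peptides bind the receptor InR, which acts through PI3 kinase and Akt. Akt keeps the transcription factor foxo out of the nucleus and lifts a brake on the TORC1 kinase complex. In starved cells foxo and the TORC1-restrained factor REPTOR turn on genes that save resources and break down cell contents, and TORC1 with Myc drives the making of ribosomes in fed cells. The foxo targets Thor and InR and genes of growth are thus among the transcripts followed here.

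Between 28365854 and 38557706 reads were counted on genes per library in these 6 libraries. The coefficient of variation between replicates that edgeR estimated over all genes was 6.29%. DILP5 replicate C stood apart from its group, with a chi-square per gene of 27.2 against replicate A and 18.0 against replicate B, where A and B differed by 8.37. Replicate C was the most distant in the other groups too. Vehicle C had 10.96 against A and 9.997 against B, where A and B differed by 7.104. DILP2 C had 20.89 and 15.48, where A and B differed by 7.208. The deviations of single libraries ran with gene length, with a Spearman rho across 8608 genes of -0.323, -0.154 and 0.0959 in DILP5 replicates A, B and C and of 0.163, 0.0194 and 0.291 in vehicle replicates A, B and C. Of 11 hemocyte markers, 8 were at 1 CPM (counts scaled to a common library total) or more in every library, while NimC1, He and Sr-CI were below it in all 6. Of 27 markers of other cell types, 21 were below 1 CPM in every library and 4, elav, brp, zpg and Mlc2, were above it in all. Scaled by library totals alone, the hemocyte markers summed to between 2030 and 2150 CPM with DILP5 and between 2190 and 2300 CPM with vehicle. The others summed to between 210 and 231 CPM with DILP5 and between 219 and 242 CPM with vehicle. TMM scaling, used for single genes below, divides by further factors. These were 1.003 to 1.029 with vehicle and 0.980 to 0.9996 with DILP5, and with them the hemocyte ranges overlap. In a bulk library, fewer cells of a type and less RNA per cell cannot be told apart.

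DILP5 changed the transcripts of many genes, each by a small amount. Of the 8981 genes tested, 13.1% had a Benjamini-Hochberg adjusted p under 0.05 in the edgeR quasi-likelihood test. These are the genes called here, 564 higher and 609 lower with DILP5. The called genes made up 6.28% of all genes on the higher side and 6.78% on the lower side, and these shares are the background for every list below. The median change was 1.18-fold among the genes called higher and 1.24-fold among those called lower. Only 119 called genes moved at least 1.5-fold, 35 up and 84 down, and 26 moved at least 2-fold, 9 up and 17 down. Against a minimum change of 1.2-fold, 52 genes (0.579%) were called higher and 59 (0.657%) lower. All 3 DILP5 libraries lay above all 3 vehicle libraries in 1451 genes (16.2%) and below them in 1563 genes (17.4%).

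The balance of rises and falls moved with the scaling. Higher genes were 48.1% of the calls with TMM scaling, 30.0% with library size alone (366 higher and 852 lower), 36.1% with upper quartile scaling (434 and 769) and 62.9% with a trend on gene length removed (779 and 459, or 8.67% and 5.11% of all genes). The number of calls was 1173 with all libraries, but 622 without vehicle replicate A, 624 without vehicle replicate C, 759 without DILP5 replicate A and 629 without DILP5 replicate B. The length-trend setting moved the median of all genes by 0.03 and library size alone by -0.03 on the log2 scale.

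**Figure D1:**
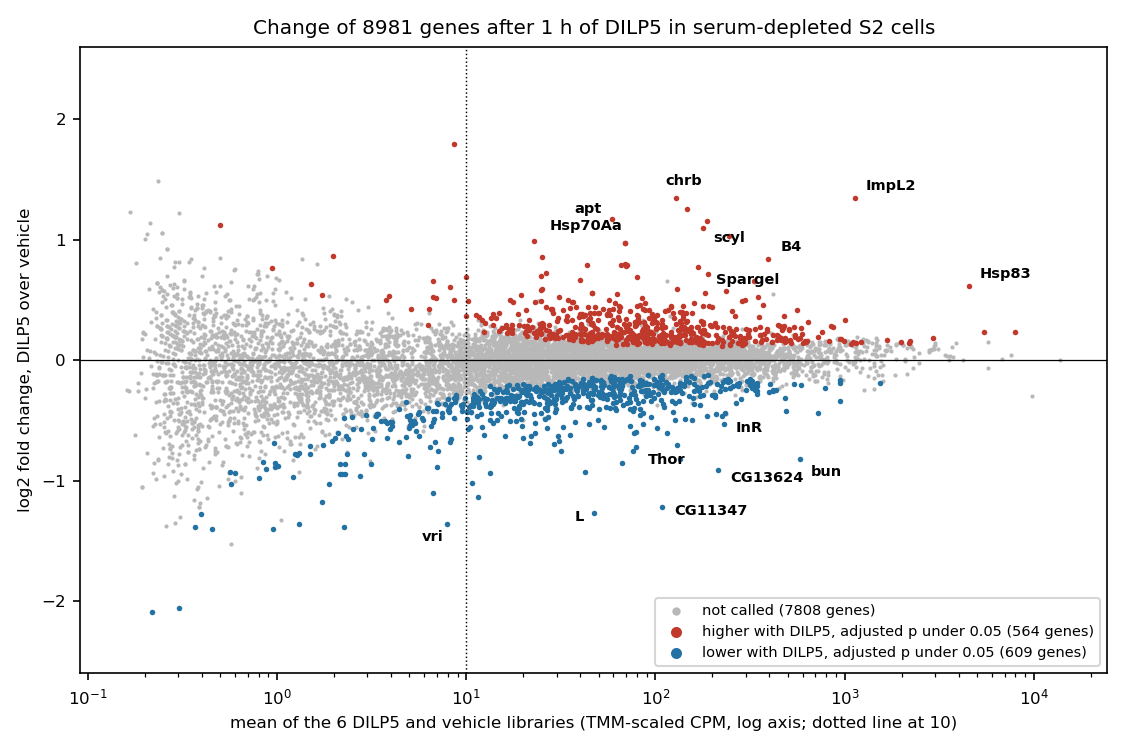
The log2 fold change of DILP5 over vehicle (vertical axis) is plotted against the mean level over the 6 libraries in TMM-scaled CPM (horizontal log axis), 1 point per gene, with the 564 genes called higher in red, the 609 called lower in blue and the rest in grey. Well-counted genes past 2-fold, such as chrb, ImpL2 and apt above and L and CG11347 below, lie far from the body of small changes.

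Of the called genes, 546 of the rises and 495 of the falls had a mean of at least 10 TMM-scaled CPM over the 6 libraries, which is 8.83% and 8.0% of the 6184 genes at that level. Among these, 27 rose and 28 fell by 1.5-fold or more, and 7 rose and 4 fell by 2-fold or more. Of those with no overlap between the groups, 14 of the 15 largest rises and the 15 largest falls are described next, followed by the functional lists.

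The largest rises were led by genes that restrain insulin and TOR signalling. chrb (charybde), an inhibitor of TORC1, had 189, 181 and 184 CPM in DILP5 replicates A, B and C, against 72.04, 72.8 and 72.2 CPM in vehicle replicates A, B and C. The libraries of each group agreed closely, and the groups lay far apart, with a log2 fold change of 1.35 ± 0.04 (SE; edgeR, adjusted p = 4.9e-09). Its relative scyl (scylla), which inhibits TORC1 in the same way, had 245, 246 and 237 CPM with DILP5, against 118, 107 and 114.7 CPM with vehicle, a log2 fold change of 1.10 ± 0.06 (adjusted p = 3.8e-07). ImpL2, a secreted protein that binds and antagonizes DILPs, had 1886, 1682 and 1309 CPM with DILP5, against 722, 594 and 604 CPM with vehicle, and rose by 1.34 ± 0.13 on the log2 scale (adjusted p = 5.9e-05). DILP5 replicate C was the lowest of the DILP5 libraries for ImpL2, though above every vehicle library as the ranking required. In the BDGP6 annotation, 1651 of the 2667 exonic bp of ImpL2 also belong to CG46460 on the same strand, a gene not tested here.

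A set of metabolic genes rose almost as far. The mitochondrial solute carriers CG8026 and CG32103 were among them. CG8026 had 270, 269 and 240 CPM with DILP5, against 117, 118 and 115.2 CPM with vehicle, and CG32103 (SCaMC) had 321, 328 and 334.1 CPM with DILP5, against 161, 158 and 162 CPM with vehicle. Their log2 fold changes were 1.16 ± 0.06 for CG8026 and 1.03 ± 0.04 for CG32103. Pepck, the enzyme that makes phosphoenolpyruvate for gluconeogenesis, was a weaker transcript with 29.9, 30.4 and 31.0 CPM with DILP5, against 14.4, 14.0 and 17.5 CPM with vehicle (log2 fold change 0.99 ± 0.08, adjusted p = 1.5e-05). Nearly all exonic bases of CG8026 (2926 of 3003 bp) and all of Pepck (2486 of 2486 bp) are shared with another gene model on the same strand, so reads here may belong to either model.

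Among regulators of development, apt (apontic), a transcription factor, had 82.9, 78.8 and 83.1 CPM with DILP5, against 35.0, 36.7 and 37.1 CPM with vehicle (log2 fold change 1.17 ± 0.05). bnl (branchless), the FGF ligand that guides growing tracheae, had 34.0, 31.6 and 31.8 CPM with DILP5, against 19.8, 17.4 and 16.6 CPM with vehicle (log2 fold change 0.85 ± 0.07). B4 had 483, 508 and 519 CPM with DILP5, against 280, 281 and 283 CPM with vehicle (log2 fold change 0.84 ± 0.04, adjusted p = 2.0e-07). The vehicle libraries of B4 agreed closely, and every DILP5 library lay far above them. Another 5 of the 15 largest rises were copies of Hsp70, described with the chaperones. CG3348, named here after its values were seen because its mean level fell just short of 10 CPM, rose further than any of these genes, with 15.1, 12.8 and 12.2 CPM with DILP5, against 3.63, 3.70 and 4.19 CPM with vehicle (log2 fold change 1.80 ± 0.11, adjusted p = 2.7e-06).

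The largest falls were led by L (Lobe), the fly homologue of PRAS40, a substrate and inhibitor of TORC1. It had 30.1, 26.6 and 26.3 CPM with DILP5, against 65.4, 65.9 and 68.2 CPM with vehicle, a log2 fold change of -1.27 ± 0.06 (edgeR, adjusted p = 1.4e-07). CG11347 (TP53INP), whose mammalian relatives take part in autophagy, had 60.3, 59.0 and 74.8 CPM with DILP5, against 148, 141 and 163 CPM with vehicle (log2 fold change -1.22 ± 0.10). CG13624 is REPTOR, the factor that drives much of the transcriptional response to low TORC1 activity. Its transcript had 142, 141 and 162 CPM with DILP5, against 279, 259 and 297 CPM with vehicle (log2 fold change -0.91 ± 0.08, adjusted p = 2.1e-05).

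bun (bunched), of the TSC22 family of growth regulators, was the most abundant of the large falls. It had 429, 408 and 429 CPM with DILP5, against 743, 711 and 783 CPM with vehicle (log2 fold change -0.82 ± 0.05). cbt (cabut), a zinc finger factor, had 103, 97.9 and 92.7 CPM with DILP5, against 184, 166 and 168 CPM with vehicle (log2 fold change -0.82 ± 0.05). Both genes were lower in each DILP5 library than in any vehicle library, which the ranking required. Thor, the translation inhibitor 4E-BP and a known foxo target, had 70.6, 67.0 and 40.1 CPM with DILP5, against 114.5, 86.5 and 92.3 CPM with vehicle. DILP5 replicate C was far below the other DILP5 libraries, and the log2 fold change of -0.72 ± 0.19 only just passed (adjusted p = 0.031). The call for Thor was lost without vehicle replicate A (adjusted p = 0.12), vehicle replicate C (0.0681) or DILP5 replicate B (0.0547).

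The other 9 large falls are named without a role. CG7083, CG18171, CG12214 and CG31886 were weak transcripts, with means between 7.07 and 9.18 CPM with DILP5 and between 14.4 and 17.6 CPM with vehicle. The more abundant CG10365, CG6770, CG3726, CG10383 and lbk (lambik) had log2 fold changes between -0.93 and -0.70. CG10365 had 28.7, 28.9 and 30.5 CPM with DILP5, against 52.9, 56.5 and 57.99 CPM with vehicle, and lbk had 54.6, 54.4 and 60.2 CPM with DILP5, against 95.9, 91.0 and 99.1 CPM with vehicle. Of the rises and falls described, all but Thor were called with each library left out in turn.

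**Figure D2:**
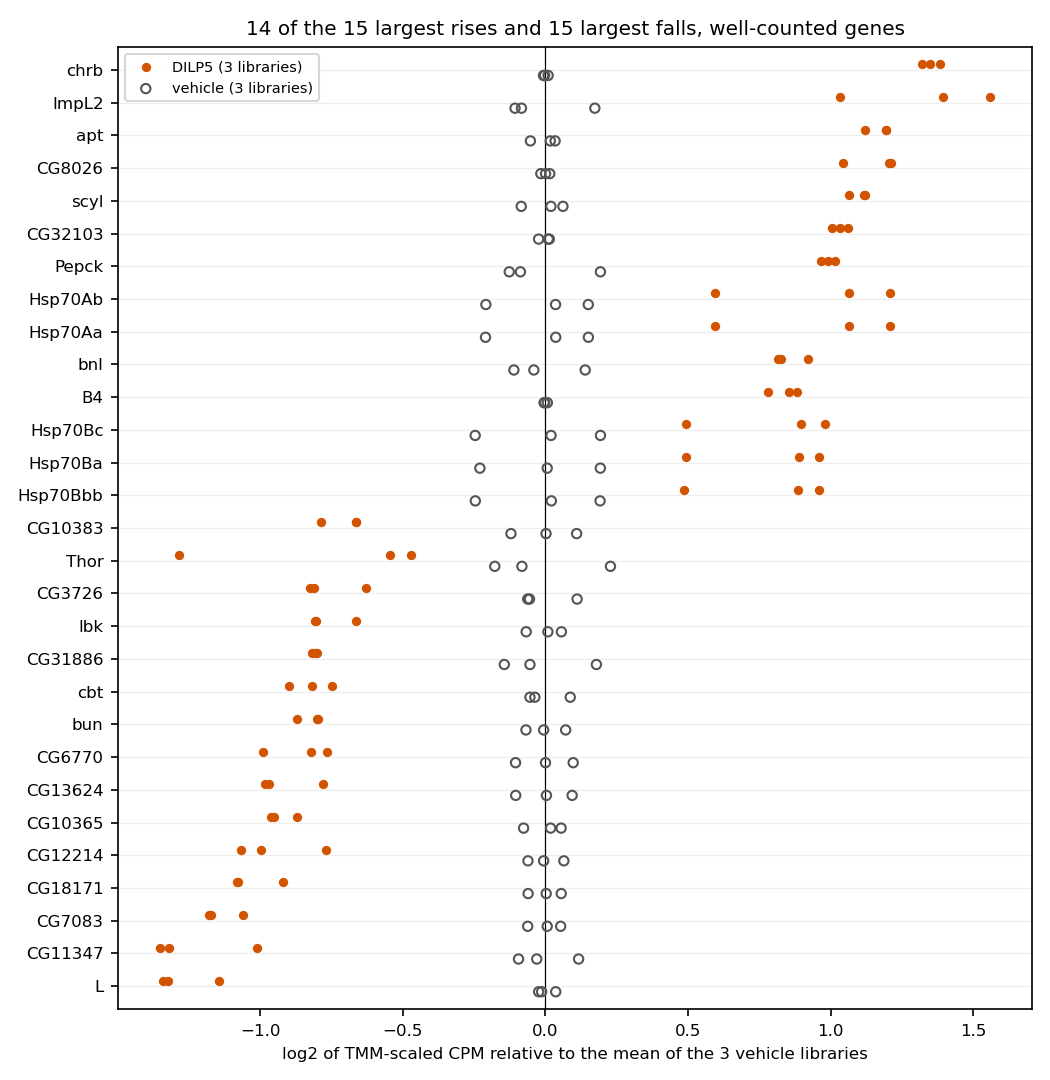
Each row is 1 of 14 of the 15 largest rises (top) or 15 largest falls (bottom) among well-counted genes, and the horizontal axis is the log2 of TMM-scaled CPM relative to the mean of the 3 vehicle libraries, with filled points for the 3 DILP5 libraries and open points for the 3 vehicle libraries. The groups do not overlap in any row because the ranking required it. The DILP5 points of ImpL2, the Hsp70 copies and Thor are widely spread, while those of chrb and CG32103 lie close together.

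The genes were then grouped into 52 functional lists, which held 1873 of the tested genes, 219 of the rises and 103 of the falls. The remaining 345 rises and 506 falls were in no list. Counts for a list are set beside the 6.28% and 6.78% of all genes called higher and lower, and no test of the lists themselves was made.

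The insulin and TOR pathway held changes in both directions. Of its 36 tested members, 5 were called higher and 12 lower, and its median log2 fold change was -0.08. With the length trend removed, 7 were called higher and 9 lower, with a median of -0.01. Against a minimum change of 1.2-fold, 5 were called higher and 4 lower. The 5 rises were chrb, scyl, ImpL2, Pi3K21B and Spargel. Pi3K21B, the adaptor subunit of PI3 kinase, had 277, 281 and 291 CPM with DILP5, against 187, 191 and 192 CPM with vehicle (log2 fold change 0.57 ± 0.04, adjusted p = 3.1e-06). Spargel (srl), the fly PGC-1 coactivator of mitochondrial genes, had 225, 219 and 212 CPM with DILP5, against 146, 151 and 149 CPM with vehicle (log2 fold change 0.56 ± 0.04).

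The receptor and the upper kinases of the pathway fell. InR had 176, 190 and 197 CPM with DILP5, against 286, 254 and 272 CPM with vehicle (log2 fold change -0.53 ± 0.06, adjusted p = 0.00014). Pk61C (Pdk1), the kinase that activates Akt, had 152, 155 and 163 CPM with DILP5, against 212, 227 and 210 CPM with vehicle (log2 fold change -0.46 ± 0.05). Akt1 itself fell less, with 150, 145 and 152 CPM with DILP5 and 172, 169 and 171 CPM with vehicle (log2 fold change -0.20 ± 0.04, adjusted p = 0.0057). The transcripts of foxo (log2 fold change 0.11 ± 0.05, adjusted p = 0.19), Tor (-0.07 ± 0.06, 0.52) and S6k (-0.02 ± 0.05, 0.82) did not pass the test. Nor did Indy, a citrate transporter, with 532, 555 and 629 CPM with DILP5 and 469, 510 and 509 CPM with vehicle (adjusted p = 0.070), or RpL32, the ribosomal protein gene used as the qRT-PCR standard in the study (log2 fold change 0.19 ± 0.06, adjusted p = 0.077). Indy passed without DILP5 replicate A (adjusted p = 0.0489) and RpL32 without DILP5 replicate C (0.0391). The number of falls in the list was 7 without vehicle replicate A and between 8 and 10 without any other single library.

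Ribosome biogenesis was the most complete rise among the lists. These nucleolar proteins cut, modify and fold ribosomal RNA and assemble it with ribosomal proteins. Of 61 tested members, 45 (73.8%) were called higher and 0 lower, and 52 had all 3 DILP5 libraries above all 3 vehicle libraries. The median log2 fold change was 0.31. Relative to the vehicle mean, the list's median stood at 0.30, 0.30 and 0.31 on the log2 scale in DILP5 replicates A, B and C, and at -0.05, 0.04 and 0.01 in vehicle replicates A, B and C. The DILP5 libraries agreed closely and lay apart from the vehicle libraries.

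nop5, a core protein of the box C/D particles that methylate ribosomal RNA, had 400, 413 and 414 CPM with DILP5, against 271, 292 and 288 CPM with vehicle (log2 fold change 0.53 ± 0.04). Fib (fibrillarin), the methyltransferase of the same particles, had 335, 333 and 375 CPM with DILP5, against 230, 248 and 258 CPM with vehicle (log2 fold change 0.50 ± 0.06). Nop60B, the pseudouridine synthase of the box H/ACA particles, had 428, 429 and 430 CPM with DILP5, against 311, 315 and 310 CPM with vehicle (log2 fold change 0.46 ± 0.04, adjusted p = 1.6e-05). CG3071 had 65.5, 65.6 and 68.7 CPM with DILP5, against 45.8, 48.5 and 46.8 CPM with vehicle. All 4 genes were called with each library left out. Between 38 and 44 members were called higher with 1 library left out and 48 with the length trend removed, but against a minimum change of 1.2-fold only 10 were.

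In the list of the Myc network and RNA polymerases I and III, 8 of 30 members (26.7%) were called higher, 1 was called lower and 21 were not called, with a median log2 fold change of 0.06. RpI135 (Polr1B), the second largest subunit of polymerase I, had 121, 131 and 135 CPM with DILP5, against 94.3, 97.3 and 99.2 CPM with vehicle (log2 fold change 0.41 ± 0.05). CG3756 (Polr1C), shared by polymerases I and III, had 39.8, 39.4 and 41.8 CPM with DILP5, against 26.1, 30.3 and 29.3 CPM with vehicle (log2 fold change 0.50 ± 0.06), and CG5147 (Polr3D), of polymerase III, rose by 0.29 ± 0.04. Myc itself, named dm in the table, was not called, with 366, 358 and 446 CPM with DILP5 and 357, 314 and 364 CPM with vehicle (adjusted p = 0.29). The vehicle and DILP5 ranges of dm overlapped.

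The proteins of the ribosome moved less than the factors that build it. Of 85 cytosolic ribosomal protein genes, 8 (9.41%) were called higher and 0 lower with a median log2 fold change of 0.14, and of 75 mitochondrial ones, 9 were called higher and 0 lower with a median of 0.12. All 3 DILP5 libraries lay above all 3 vehicle libraries in 57 of the cytosolic and 29 of the mitochondrial genes and below them in 0 of either, where 16.2% of all genes lay above. The counts of calls moved with single libraries. For the cytosolic list the number was 13 without DILP5 replicate C and 0 or 1 without any other library. For the mitochondrial list it was 0 without vehicle replicate A or C, 3 without DILP5 replicate A or B, 4 without DILP5 replicate C and 10 without vehicle replicate B. Both lists hold short genes, with median exonic lengths of 921.5 and 790 bp, and with the length trend removed their medians were 0.12 and 0.10.

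The lists of cytosolic chaperones had many rises, while of 49 genes for translocation and folding in the ER 1 (2.04%) was called higher and 0 lower. Of 21 genes for Hsp90 and its co-chaperones, 12 (57.1%) were called higher and 1 lower. Hsp83, the cytosolic Hsp90 of the fly, was among the most abundant transcripts with 5394, 5778 and 5323 CPM with DILP5, against 3626, 3424 and 3712 CPM with vehicle (log2 fold change 0.62 ± 0.05, adjusted p = 1.9e-05). DnaJ-1, an Hsp40 that hands clients to Hsp70, had 243, 233 and 212 CPM with DILP5, against 171, 169 and 167 CPM with vehicle (log2 fold change 0.44 ± 0.05). The fall in the list was stv (starvin), a BAG-domain co-chaperone of Hsp70, with 10.5, 9.24 and 9.55 CPM with DILP5, against 14.97, 14.5 and 15.5 CPM with vehicle (log2 fold change -0.62 ± 0.08). Hsf, the heat shock factor, rose by only 0.15 ± 0.04 (adjusted p = 0.015) and lost its call without vehicle replicate A (0.0568) or C (0.0599). The number of rises in the list was 3 without vehicle replicate A, 5 without vehicle replicate C, 6 without DILP5 replicate A and 7 without DILP5 replicate B.

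Of 19 tested Hsp70 and small heat shock genes, 10 were called higher and 0 lower with a median log2 fold change of 0.45. The 6 inducible Hsp70 genes are nearly identical copies, and how reads matching several of them were counted is not given in the sources used here, so they are better read as a single measurement. Hsp70Aa had 107, 97.2 and 70.2 CPM with DILP5, against 51.6, 40.2 and 47.7 CPM with vehicle (log2 fold change 0.98 ± 0.16, adjusted p = 0.0022). DILP5 replicate C was again the lowest of its group. HspB8, a small heat shock protein, had 140, 143 and 136 CPM with DILP5, against 110, 114.8 and 105 CPM with vehicle (log2 fold change 0.35 ± 0.06). The cytosolic chaperonin and prefoldin, which fold actin and tubulin, had 9 of 15 members (60.0%) called higher and 0 lower, or 5 without vehicle replicate A or DILP5 replicate B. Among them the prefoldin subunit CG10635 (Pfdn4) had 39.1, 39.1 and 37.4 CPM with DILP5, against 30.3, 30.8 and 28.7 CPM with vehicle, and mgr, another prefoldin subunit, rose by 0.26 ± 0.05.

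**Figure D3:**
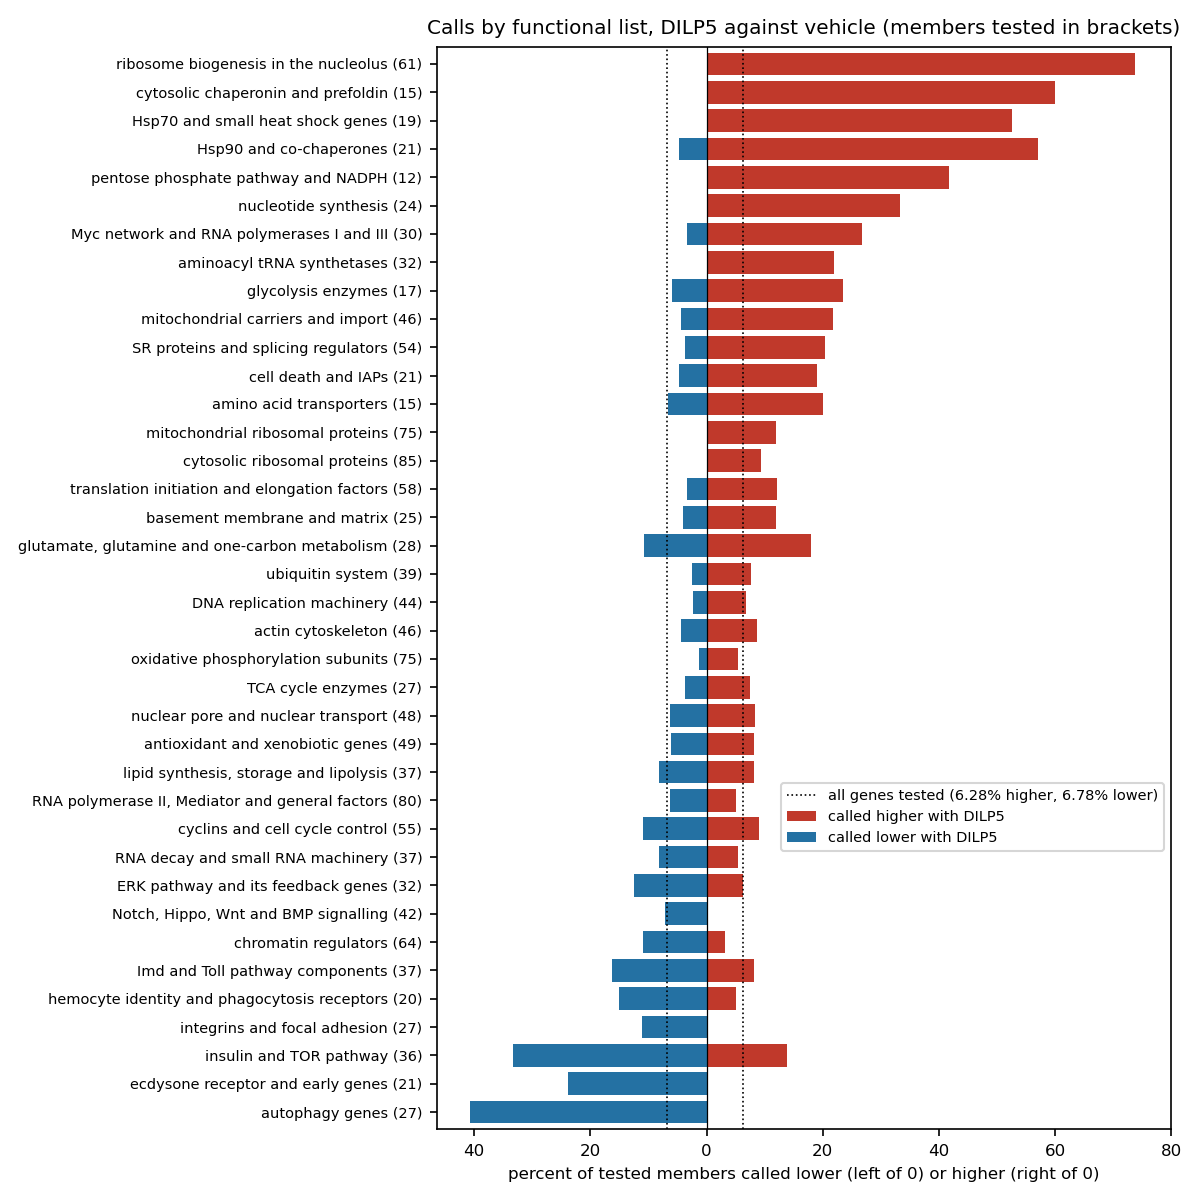
Bars give the percent of tested members called higher with DILP5 (red, right of 0) and lower (blue, left of 0) in the 38 lists with at least 12 tested members and at least 3 calls, with the number tested in brackets. Dotted lines mark the 6.28% higher and 6.78% lower of all genes, and ribosome biogenesis (73.8% higher) and autophagy (40.7% lower) lie farthest from them at the 2 ends.

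The metabolic lists differed. Oxidative phosphorylation had 4 of 75 members (5.33%) called higher and 1 lower, the TCA cycle 2 of 27 (7.41%) higher and 1 lower, and lipid metabolism 3 of 37 (8.11%) in each direction, all near the shares over all genes or below them. Of 12 genes of the pentose phosphate pathway and NADPH supply, 5 were called higher and 0 lower, or 3 without vehicle replicate B. Nmdmc, a mitochondrial enzyme of folate metabolism, had 56.7, 59.8 and 65.7 CPM with DILP5, against 41.7, 49.1 and 45.1 CPM with vehicle (log2 fold change 0.42 ± 0.07). It is not an enzyme of the pentose phosphate pathway, and it was counted in the list of glutamate, glutamine and one-carbon metabolism as well. The isomerase CG30410 (Rpi) and the epimerase CG30499 (Rpe) of the pathway rose by 0.18 ± 0.04 and 0.21 ± 0.04. Of 24 genes of nucleotide synthesis, 8 were called higher and 0 lower. That number was between 2 and 4 without vehicle replicate A, B or C or DILP5 replicate B or C. Among them, r-l, the last enzyme of pyrimidine synthesis, had 83.1, 85.6 and 86.8 CPM with DILP5, against 67.0, 72.6 and 70.6 CPM with vehicle (log2 fold change 0.28 ± 0.04), and Dhod, of the same pathway, rose by 0.19 ± 0.04.

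Of 46 mitochondrial carriers and import factors, 10 were called higher and 2 lower, with CG8026 and CG32103 far ahead of the rest. The rises numbered 5 without vehicle replicate A and 6 without DILP5 replicate A. The import chaperone Hsc70-5 rose by 0.21 ± 0.04, while att-ORFA (DPCoAC), a carrier of coenzyme A, had 12.5, 12.9 and 12.4 CPM with DILP5, against 18.8, 19.2 and 20.6 CPM with vehicle (log2 fold change -0.63 ± 0.06). att-ORFA shares 1327 of its 2265 exonic bp with att-ORFB on the same strand, which fell too. Pdk, the kinase that shuts pyruvate dehydrogenase, had 46.2, 39.8 and 43.5 CPM with DILP5, against 64.8, 61.3 and 63.6 CPM with vehicle (log2 fold change -0.55 ± 0.06, adjusted p = 8.6e-05). The glycolytic enzymes Pglym78 (log2 fold change 0.23 ± 0.05) and Ald (0.19 ± 0.04) rose, and the triglyceride lipase bmm (brummer) fell by 0.20 ± 0.04 on the log2 scale. Pect and Cct1, which make the phospholipid precursors of membranes, rose by 0.22 ± 0.04 and 0.27 ± 0.06. These 5 calls held with each library left out.

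Autophagy was the list with the largest share of falls. Of 27 tested genes, 11 (40.7%) were called lower and 0 higher, and the median log2 fold change was -0.18. CG1347 (Atg17), the scaffold of the Atg1 kinase complex that starts autophagosomes, had 62.5, 61.7 and 64.1 CPM with DILP5, against 94.5, 88.5 and 101 CPM with vehicle (log2 fold change -0.60 ± 0.05, adjusted p = 2.8e-05). CG8678 (Atg18b), a lipid-binding propeller protein, had 22.6, 24.7 and 24.4 CPM with DILP5, against 35.7, 37.8 and 37.6 CPM with vehicle (log2 fold change -0.63 ± 0.06). bchs (blue cheese), a large adaptor for protein aggregates, had 76.9, 80.03 and 80.9 CPM with DILP5, against 110, 107 and 113 CPM with vehicle (log2 fold change -0.47 ± 0.04). None of these 3 genes overlapped between the groups. Atg8a, the ubiquitin-like protein on the autophagosome membrane, was not called with all libraries, with 156.1, 138 and 128 CPM with DILP5 and 154, 152 and 147 CPM with vehicle (adjusted p = 0.32), and was called without DILP5 replicate A (0.0448). The list had 7 falls without vehicle replicate C and 10 with the length trend removed.

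In the Imd and Toll pathways of innate immunity, 3 of 37 members (8.11%) were called higher and 6 (16.2%) lower. pirk, which restrains the Imd receptor, had 58.9, 55.9 and 50.5 CPM with DILP5, against 31.2, 33.4 and 31.2 CPM with vehicle (log2 fold change 0.79 ± 0.06, adjusted p = 1.2e-05). Rel (Relish), the NF-kappaB factor of the pathway, had 241, 251 and 260 CPM with DILP5, against 313, 305 and 323 CPM with vehicle (log2 fold change -0.32 ± 0.04). Its activating kinase ird5 and the ubiquitin ligase dnr1 fell by 0.36 ± 0.06 and by 0.60 ± 0.09, and cact (cactus), the inhibitor in the Toll branch, rose by 0.33 ± 0.07. Dredd rose by 0.18 ± 0.05 (edgeR, adjusted p = 0.032), but its call was lost with any 1 library left out. Whether these transcripts raise or lower the activity of the pathways was not tested. In other pathways the feedback inhibitor Socs36E of JAK-STAT signalling had 256, 242 and 208 CPM with DILP5, against 161, 136 and 134 CPM with vehicle (log2 fold change 0.71 ± 0.10). sty (sprouty) and Gap1, which restrain receptor tyrosine kinase signalling to ERK, rose by 0.28 ± 0.06 and 0.26 ± 0.04. The FGF ligand pyr (pyramus) had 18.5, 15.8 and 15.8 CPM with DILP5, against 27.5, 28.04 and 25.1 CPM with vehicle (log2 fold change -0.69 ± 0.08). In the ERK list, 2 of 32 members (6.25%) were called higher, near the 6.28% of all genes, and 4 (12.5%) lower. In the JAK-STAT list, 1 of 11 members (9.09%) was called in each direction, so its share of rises rests on 1 gene. The fall was Stat92E (log2 fold change -0.20 ± 0.06), whose call was lost in 5 of the 6 fits with 1 library left out.

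The ecdysone receptor EcR had 83.8, 81.3 and 85.8 CPM with DILP5, against 111, 96.0 and 109 CPM with vehicle (log2 fold change -0.34 ± 0.06, adjusted p = 0.0032). It was 1 of 5 falls among 21 genes of ecdysone response. Without vehicle replicate A, vehicle replicate C or DILP5 replicate A it was 1 of 1, and without DILP5 replicate B it was 1 of 2. With the length trend removed, 2 of the 21 genes were called lower. Of 64 chromatin regulators, 2 (3.12%) were called higher and 7 (10.9%) lower, but with the length trend removed 7 were called higher and 4 lower. HDAC4 had 178, 181 and 210 CPM with DILP5, against 251, 256 and 276 CPM with vehicle, and the Polycomb protein Psc had 69.9, 70.3 and 78.5 CPM with DILP5, against 97.2, 91.4 and 108 CPM with vehicle. The chromatin list had 3 falls without vehicle replicate A and 4 without vehicle replicate C, and its median log2 fold change of -0.04 was 0.02 with the length trend removed. Among clock genes, vri (vrille), a repressor of Clk, moved as far as the leading falls, although its mean level was below the 10 CPM used for the rankings, with 4.48, 4.23 and 4.59 CPM with DILP5 and 11.5, 10.8 and 11.9 CPM with vehicle (log2 fold change -1.36 ± 0.09, adjusted p = 3.1e-06). cwo (clockwork orange), another repressor of the clock, had 225, 216 and 223 CPM with DILP5, against 164, 159 and 163 CPM with vehicle (log2 fold change 0.45 ± 0.04).

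The hemocyte factors srp (serpent) and ush (u-shaped), a GATA factor and its partner, were both lower with DILP5. srp had 320, 304 and 310 CPM with DILP5, against 373, 370 and 395 CPM with vehicle, and ush had 393, 385 and 368 CPM with DILP5, against 458, 452 and 455 CPM with vehicle. Their log2 fold changes were -0.28 ± 0.05 (adjusted p = 0.0051) and -0.25 ± 0.04 (0.0017). The structural hemocyte genes Cg25C (log2 fold change 0.09 ± 0.07, adjusted p = 0.48) and vkg (0.05 ± 0.08, 0.76), the chains of collagen IV, and Pxn (-0.09 ± 0.19, 0.80) did not pass the test.

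In 4 of the 52 lists no member was called: histones, traffic between the ER and Golgi, storage sugars, and markers of adult tissues and germline. Over all lists, 38 entries matched no counted gene. The entries GlyS (glycogen synthase) and Gyg (glycogenin) of the storage sugar list were among these and were not assessed. The 116 histone genes are mostly near-identical copies and moved with single libraries. Their median relative to the vehicle mean was 0.37, 0.22 and -0.32 on the log2 scale in DILP5 replicates A, B and C and 0.37, -0.18 and -0.19 in vehicle replicates A, B and C, and 19 were called higher without DILP5 replicate C. The vehicle range lay within the DILP5 range.

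**Figure D4:**
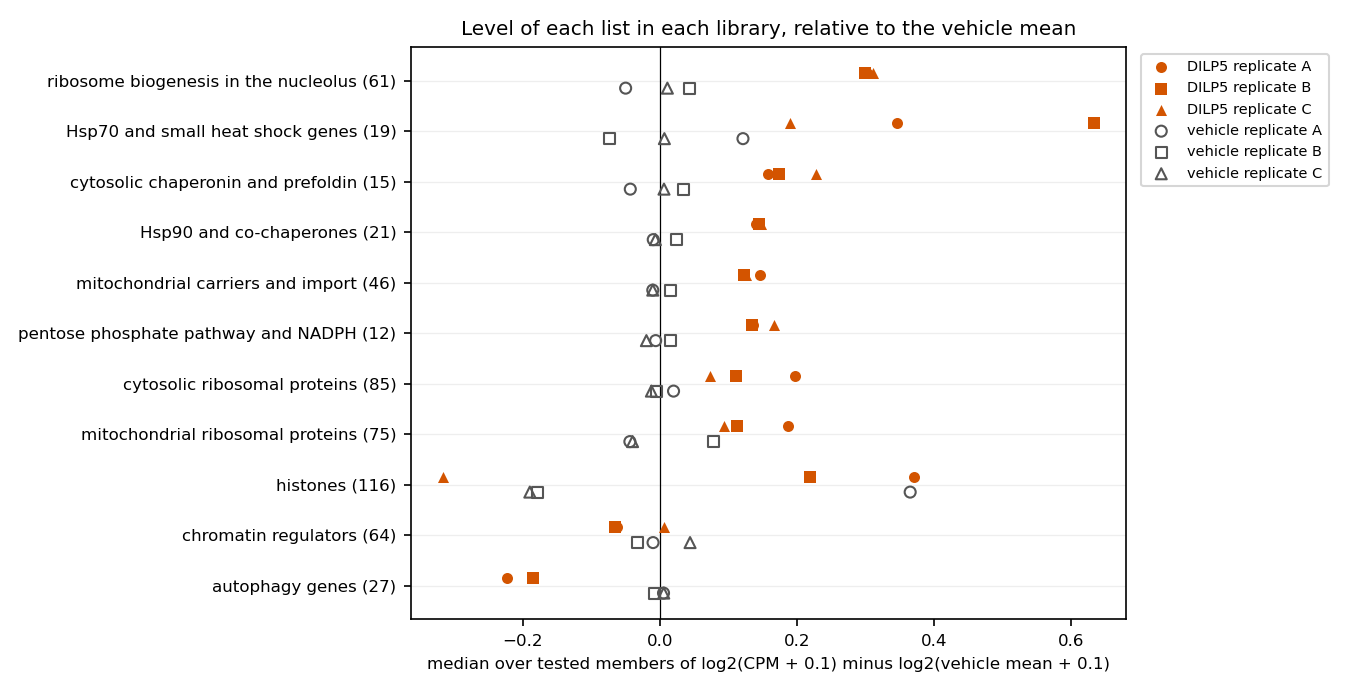
For 11 lists, the median over tested members of log2(CPM + 0.1) relative to the vehicle mean is plotted for each library, DILP5 as filled and vehicle as open symbols, with circles, squares and triangles for replicates A, B and C. Ribosome biogenesis (0.30 to 0.31 with DILP5) and autophagy (-0.22 to -0.19) separate the groups with little spread, while histones range from -0.32 to 0.37 within the DILP5 group.

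Genes that rose and genes that fell differed in length. The median exonic length was 1984 bp among the genes called higher, 3230 bp among those called lower and 2049 bp among all tested genes, and the median number of exons was 3, 5 and 4. Of 387 genes over 8000 bp, 2.33% were called higher and 11.1% lower, and of 1164 genes between 500 and 1000 bp, 5.33% were called higher and 1.12% lower. The median log2 fold change was -0.09 in the bin of longest genes and 0.08 between 500 and 1000 bp. The deviations of single libraries from one another ran with length as well, as given above, and their part in these medians was not tested. With the trend removed, genes over 8000 bp had a median of 0.004, with 21 called higher and 22 lower. By chromosome arm, between 5.76% (2L) and 6.91% (3R) of genes were called higher and between 5.08% (X) and 7.77% (3L) lower, apart from chromosome 4, where 0 of 61 genes were called higher and 8.2% lower.

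**Figure D5:**
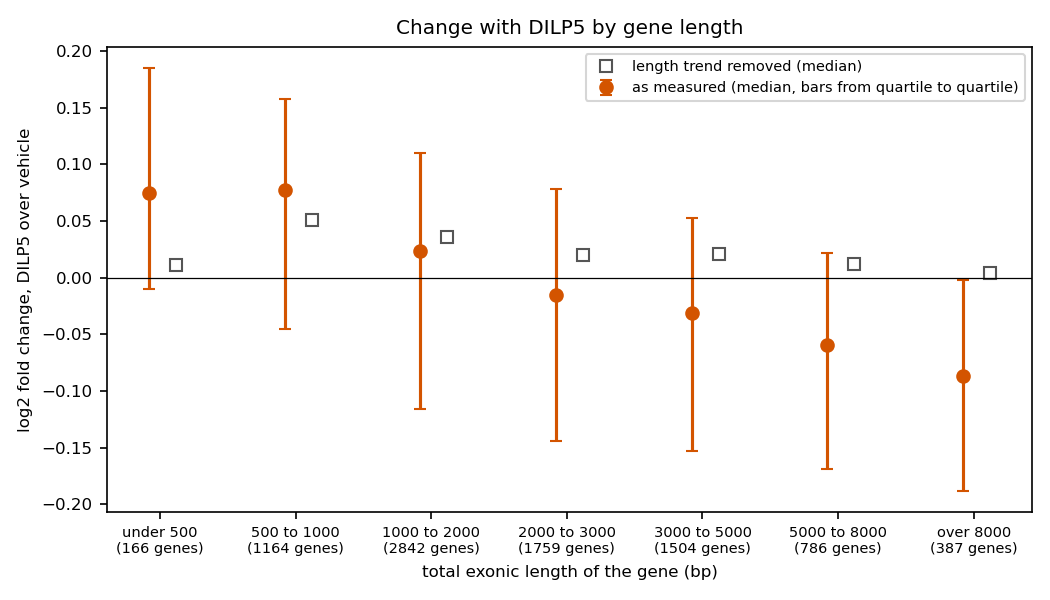
The median log2 fold change of DILP5 over vehicle (filled points, bars from the lower to the upper quartile) is plotted in 7 bins of total exonic length in bp, with the medians after removal of the length trend as open squares. The measured medians decline from 0.08 at 500 to 1000 bp to -0.09 over 8000 bp.

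The DILP2 libraries were set against the same 3 vehicle libraries, so the 2 comparisons are not independent, and values are given side by side. The log2 fold change over vehicle was 1.35 with DILP5 and 1.33 with DILP2 for chrb, 1.34 and 1.27 for ImpL2, -1.27 and -1.21 for L, -0.91 and -0.80 for CG13624, 0.62 and 0.63 for Hsp83, and -1.36 and -1.35 for vri. The median over the ribosome biogenesis list was 0.31 with DILP5 and 0.29 with DILP2, and over the autophagy list -0.18 and -0.14.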

How the data were processed

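Poly(A) RNA from S2 cells was sequenced as single-end reads. The labels and methods name Tophat and Bowtie with the dm3 genome and easyRNASeq for counting, and the files hold raw counts per gene deposited by the authors. Tool versions, the annotation release, strand and the treatment of multiply mapped reads are not given in the sources used here. The 9 libraries were fitted together with edgeR 4.0.16 (R 4.3.3) on the 8981 genes kept by filterByExpr, with TMM scaling and quasi-likelihood F tests, and p-values were adjusted by Benjamini-Hochberg with a threshold of 0.05. SE is the absolute log2 fold change over the square root of F. Scripts were tested on simulated data. CPM values are TMM-scaled, except that marker levels are scaled by library totals alone. Named genes were the 15 largest rises and 15 largest falls with a mean of at least 10 CPM and no overlap, up to 3 called members per list and direction, class-defining members, and genes the study measured by qRT-PCR or listed for DILP5. A gene that the rule names is not reported here. The members and lists were chosen with earlier results of these data known. The BDGP6 annotation, which holds 13389 of the 13937 gene IDs, gave only lengths, overlaps and current symbols. Alternatives covered DESeq2 1.42.0, other edgeR tests, scaling, filters, thresholds, thinning, a gene-length trend, a replicate block and each library left out.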

Additional observations from a re-analysis of the deposited data

How the results depend on the processing

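Of 1173 calls (564 higher, 609 lower), 111 (52 higher, 59 lower) passed against a minimum change of 1.2-fold and 498 (249 higher, 249 lower) at an adjusted p under 0.01. Library size alone gave 366 higher. The main fit did not pair libraries by replicate letter, and whether the letters mark libraries handled together was not tested. The deviations of same-lettered DILP5 and vehicle libraries correlated at 0.163, -0.0354 and 0.286 for A, B and C. Those of differently lettered libraries correlated between -0.291 (DILP5 C with vehicle A) and 0.189 (DILP5 B with vehicle A). The fit with the replicate block gave 2068 calls (978 higher, 1090 lower), and with the length trend removed as well 2092 (1318 higher). With 1 library left out the calls ranged between 622 and 1176, those higher between 296 and 539 and those lower between 303 and 637. For ribosome biogenesis, 45 rises became 10 against 1.2-fold. For autophagy, 11 falls became 3 against 1.2-fold and 7 at an adjusted p under 0.01, and ranged between 7 and 11 with 1 library left out. With the length trend removed, the balance of higher and lower calls turned round over all genes (779 and 459), among chromatin regulators (7 and 4, against 2 and 7) and in the list of the ERK pathway (4 and 2, against 2 and 4). The cause of these shifts was not tested. With 3 libraries a group and small changes, which genes pass depends on single libraries.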
